A study of Mus musculus with 16 samples.

Results

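The imprinted cluster around Cdkn1c and Kcnq1ot1 on mouse chromosome 7 was described through 10 genes, out of 21455 entries with a gene symbol in an RNA-seq table of mouse embryonic stem cells. The 10 genes were chosen by name, as the genes of the cluster and its edges, after Cdkn1c and Phlda2 had been selected on their difference between DKO and WT cells in these libraries. All 10 were measured and all 10 passed the filter on low values. The difference between DKO and WT cells is therefore given below as a description of these libraries, without a test. Differences of P14 cells from WT cells, and differences between stages, were tested, but they share WT or DKO libraries with that choice.

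RNA was collected from E14tg2a cells, a mouse embryonic stem cell line, in 8 groups of 2 libraries. The labels name DKO cells at 3 stages, P14 cells at 2 stages and WT cells at 3 stages. The first stage was 2i medium, in which the MEK inhibitor PD0325901 (1 µM), the GSK3 inhibitor CHIR99021 (3 µM) and LIF (1000 U/mL) keep cells naive. The later stages were day 2 and day 4 of induction towards epiblast-like cells with bFGF (12 ng/mL) on fibronectin, and P14 cells had no 2i group. The series describes wild-type cells, a cis knockout of Prdm14 and cells that overexpress Prdm14, a transcriptional regulator of naive pluripotency. DKO and P14 were matched to the knockout and the overexpressing cells by elimination only, and the labels name no clone, vector or promoter. A difference between labels can therefore not be told apart from a difference between derived lines or clones. Whether replicate libraries are separate cultures is not stated, so the spread behind each p-value may be technical.

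Prdm14 itself stood at 7054 to 11036 normalized reads in the 4 P14 libraries, far above WT at the same stages, where it stood at 166 to 712. In the 6 libraries labelled DKO it stood at 571 to 1803, which at each stage was above both WT libraries. The libraries labelled DKO thus held more Prdm14 reads than WT libraries, not fewer, and the directions below are those of libraries so labelled. Each library held 20696338 to 32710605 recovered reads, and 20358 to 20965 named genes had at least 1 read. Values are normalized reads, the authors' scaled read counts per gene, and 1 read was worth 0.792 to 1.26 of them depending on the library.

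Imprinted genes are transcribed mainly from the copy inherited from one parent. In this cluster a control region at the start of Kcnq1ot1 carries DNA methylation on the maternal copy, so the long noncoding RNA Kcnq1ot1 is made from the paternal copy, where it silences protein-coding neighbours in cis. Cdkn1c, Phlda2 and Slc22a18 are expressed mainly from the maternal copy in embryo and placenta, whereas Ascl2, Cd81 and Tssc4 are best known as imprinted in the placenta. RNA levels in bulk libraries do not tell the parental copies apart.

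In the GENCODE M21 annotation (GRCm38), Kcnq1ot1 is a single transcript of 93092 bases on the minus strand, at chr7:143203458-143296549. It lies inside Kcnq1 (chr7:143106362-143427042, plus strand), with 121 exonic bases shared. On one side, Cdkn1c (chr7:143458339-143461050, minus), Slc22a18 (chr7:143473736-143499334, plus), Phlda2 (chr7:143501545-143503150, minus) and Nap1l4 (chr7:143513579-143549106, minus) follow. On the other side lie Tssc4 (chr7:143069249-143071093, plus), Cd81 (chr7:143052739-143067934, plus) and Ascl2 (chr7:142966829-142969264, minus). Gm44732 is an antisense gene model (chr7:143459749-143460640, plus), and 625 of its 635 exonic bases lie within exons of Cdkn1c.

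The upstream sequences of the noncoding RNA and of Phlda2 are shown because the 2 genes stood on opposite sides of WT in every DKO library. They are the 250 bases before the RefSeq start site (GRCm38.p6), at chr7:143296548-143296797 for Kcnq1ot1 and chr7:143502525-143502774 for Phlda2. The RefSeq and GENCODE start sites of Phlda2 differ, so its window lies wholly inside the GENCODE span given above. Distances between start sites below use GENCODE. Both are read on the minus strand, 5′ to 3′, and capitals mark CpG dinucleotides, the bases at which vertebrate DNA is methylated.
Kcnq1ot1: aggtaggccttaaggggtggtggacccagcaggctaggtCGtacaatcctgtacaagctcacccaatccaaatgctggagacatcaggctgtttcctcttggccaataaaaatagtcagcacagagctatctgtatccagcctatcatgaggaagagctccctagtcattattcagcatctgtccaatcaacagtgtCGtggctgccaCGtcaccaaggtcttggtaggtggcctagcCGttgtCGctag
Phlda2: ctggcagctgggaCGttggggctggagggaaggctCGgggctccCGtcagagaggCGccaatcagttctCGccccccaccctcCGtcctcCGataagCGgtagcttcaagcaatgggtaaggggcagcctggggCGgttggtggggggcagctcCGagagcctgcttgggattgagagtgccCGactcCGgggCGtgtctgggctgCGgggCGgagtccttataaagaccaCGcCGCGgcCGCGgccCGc
The Kcnq1ot1 window holds 5 CpGs, more than 44.4% of the 32851 windows of this length, and the Phlda2 window holds 21, more than 83.7% of them. The motif CCAAT, searched on both strands, occurs 3 times in the Kcnq1ot1 window and 1 time in that of Phlda2, and 33.85% of all windows hold it. TATAAA, searched the same way, is in the Phlda2 window and in 12.37% of all windows. GGTCTCTAA, a motif reported for PRDM14, was in none of the 6 windows found for the 10 genes and in 0.24% of all windows. The other 4 windows were those of Slc22a18 with 0 CpGs, Cd81 with 16, Tssc4 with 17 and Ascl2 with 19, beside a median of 6 over all windows. These matches are letters in a window and were not tested for binding or methylation.

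In libraries labelled DKO, Kcnq1ot1 stood above WT at every stage, while Cdkn1c, Phlda2 and Slc22a18, the genes from 164.5 to 206.6 kb beyond its start, stood far below WT. Ascl2, at the other end of the cluster, was also lower in DKO cells on days 2 and 4, and Tssc4 and Nap1l4 differed from WT by at most 1.14-fold. In P14 cells, tested against WT, Cdkn1c fell at both days and Cd81 at day 4, and no difference in Kcnq1ot1 passed the test. In bulk libraries, fewer cells that express a gene and less RNA per cell cannot be told apart.

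**Figure D1:**
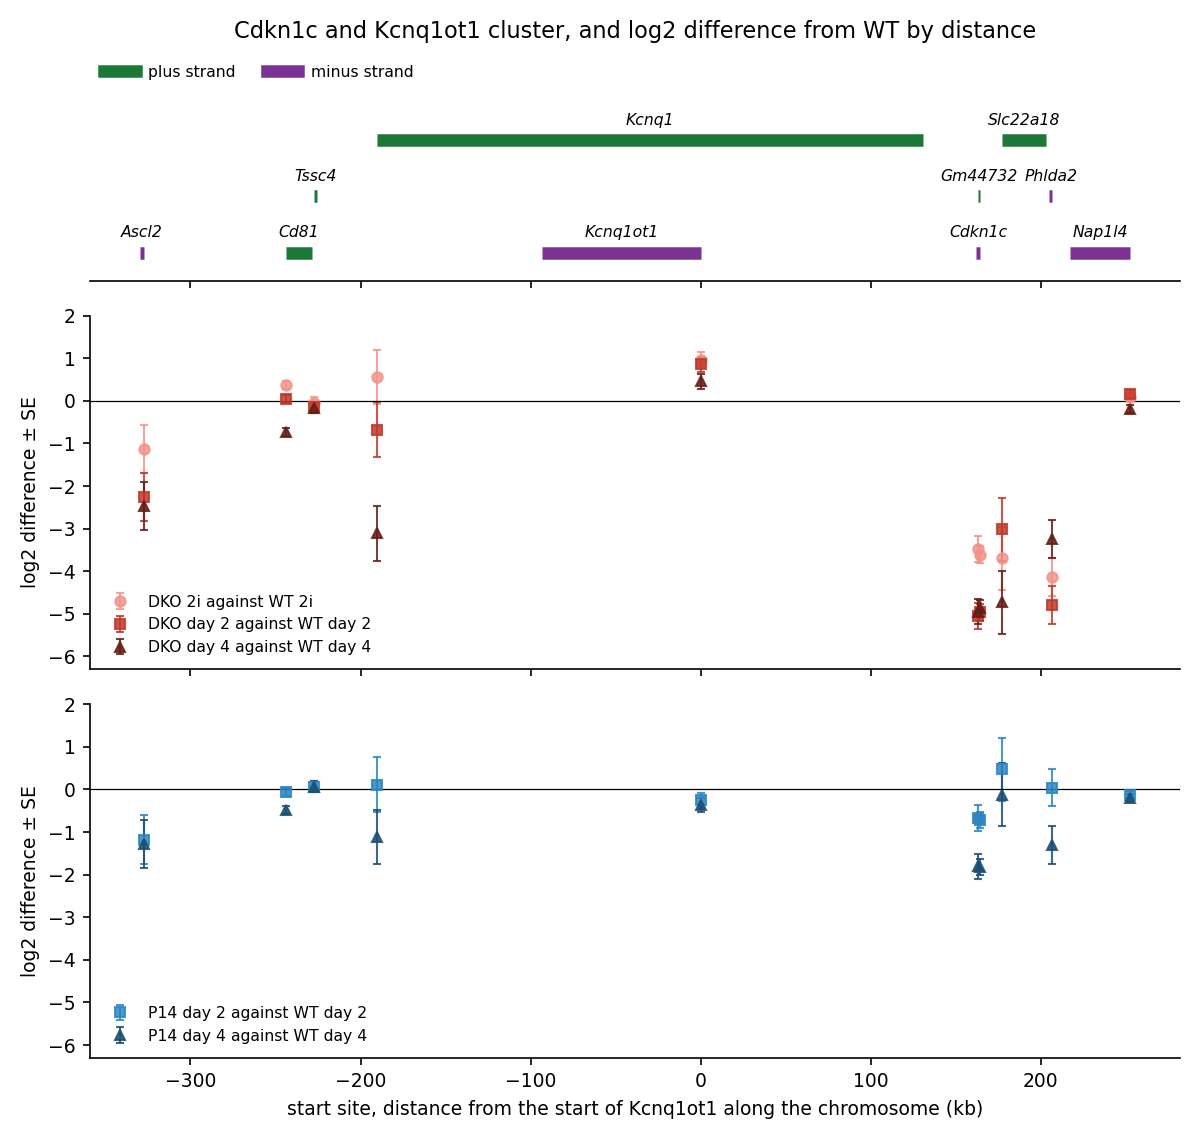
Gene positions in the cluster (top; bars run from gene start to end along the chromosome, in kb from the start of Kcnq1ot1) and the log2 difference of each gene from WT at its start site (points, with bars for 1 SE from the limma model) for DKO libraries (middle) and P14 libraries (bottom). Cdkn1c, Gm44732, Slc22a18 and Phlda2 lie lowest in the middle panel, at -3.02 or below at all 3 stages, and Kcnq1ot1 lies above 0.

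Kcnq1ot1, the silencing RNA of the domain, had 3553 and 2973 normalized reads in DKO cells in 2i, against 1774 and 1556 in WT cells in 2i. On day 2 it had 3449 and 2609 in DKO cells, against 1464 and 1881 in WT cells. By day 4 the values were 2454 and 1978 in DKO cells, against 1696 and 1505 in WT cells. All 6 DKO libraries were above all 6 WT libraries, and the DKO to WT ratio of means was 1.96 in 2i, 1.81 on day 2 and 1.38 on day 4. P14 cells had 1325 and 1467 normalized reads on day 2 and 1441 and 1072 on day 4, so that P14 and WT libraries overlapped on day 2 and not on day 4. The P14 to WT difference was -0.25 ± 0.17 (log2 ± SE) on day 2 and -0.36 ± 0.17 on day 4, and neither passed limma's test (adjusted p = 0.433 and 0.194). In order of mean level, DKO cells came first at 2i, day 2 and day 4, followed by WT cells at day 2, 2i and day 4, and P14 cells at day 2 and day 4. Neighbours in that order overlapped, except DKO day 2 and DKO day 4, DKO day 4 and WT day 2, and WT day 4 and P14 day 2. No stage difference of Kcnq1ot1 passed the test within DKO, P14 or WT cells, the nearest being the change in DKO cells from day 2 to day 4 (-0.45 ± 0.17, adjusted p = 0.087). With libraries centred on their median that change passed (-0.53, adjusted p = 0.0356).

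Cdkn1c encodes p57, an inhibitor of cyclin-dependent kinases that restrains proliferation in the embryo and placenta. In 2i medium it had 15.9 and 11.9 normalized reads in DKO cells, from 15 reads in each library, against 155 and 207 in WT cells. On day 2 it had 160 and 228 in DKO cells and 3976 and 3363 in P14 cells, against 6576 and 5476 in WT cells. The DKO libraries were thus far below, with P14 libraries between, and no group overlapped another. On day 4 it had 165 and 158 in DKO cells and 1212 and 1492 in P14 cells, against 4389 and 5110 in WT cells, in the same order. The mean in DKO cells was 13.0-fold lower than in WT cells in 2i, 31.0-fold lower on day 2 and 29.4-fold lower on day 4. The DKO means on days 2 and 4, 194 ± 47.6 and 161 ± 5.44 (SD, n = 2 each), lay at the level of WT cells in 2i, 181 ± 36.7 (SD, n = 2). In order of mean level the groups ran WT day 2, WT day 4, P14 day 2, P14 day 4, DKO day 2, WT 2i, DKO day 4 and DKO 2i, and only DKO day 2 and WT 2i, and WT 2i and DKO day 4, overlapped as neighbours.

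Induction raised Cdkn1c in both WT and DKO cells. The rise by day 2 over 2i was 33.4-fold in WT cells (log2 5.06 ± 0.19, adjusted p = 6.48e-11 by limma), in both libraries. In DKO cells it was 13.0-fold (3.70 ± 0.19, adjusted p = 2.26e-09), also in both libraries. Of the 10 genes, 4 passed the test in WT cells by day 2, where 23.4% of all genes tested did, and 3 passed in DKO cells, where 21.5% did. Both counts hold Cdkn1c and also Gm44732, whose exonic bases lie nearly all within exons of Cdkn1c. From day 2 to day 4, Cdkn1c did not pass in WT cells (-0.34 ± 0.19, adjusted p = 0.195) or in DKO cells (-0.24 ± 0.19, adjusted p = 0.428). In WT cells it did pass with libraries centred on their median (-0.52, adjusted p = 0.0495) and when only the groups compared were fitted (adjusted p = 0.0464). In P14 cells Cdkn1c fell by 1.44 ± 0.19 on the log2 scale from day 2 to day 4, or 2.72-fold (adjusted p = 7.63e-05, lower in both libraries).

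Against WT cells of the same day, P14 cells had less Cdkn1c. On day 2 the fall was 1.64-fold (log2 -0.71 ± 0.19, adjusted p = 0.031), and Cdkn1c was the only one of the 10 genes to pass, beside 8.38% of all genes. That call was lost when any one of the 4 libraries was left out, with adjusted p from 0.059 to 0.24. On day 4 the fall was 3.52-fold (-1.82 ± 0.19, adjusted p = 7.36e-06), and 3 of the 10 genes passed, all lower, beside 16.2% of all genes. The 3 were Cdkn1c, Cd81 and Gm44732, whose exons overlap those of Cdkn1c. The P14 difference was larger on day 4 than on day 2, with an interaction of -1.10 ± 0.27 on the log2 scale (adjusted p = 0.0274). Cdkn1c was the only one of the 10 genes to pass that test, beside 5.43% of all genes. The interaction was lost without WT day 2 replicate 2, P14 day 2 replicate 1, WT day 4 replicate 2 or P14 day 4 replicate 1, with adjusted p from 0.0966 to 0.124.

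**Figure D2:**
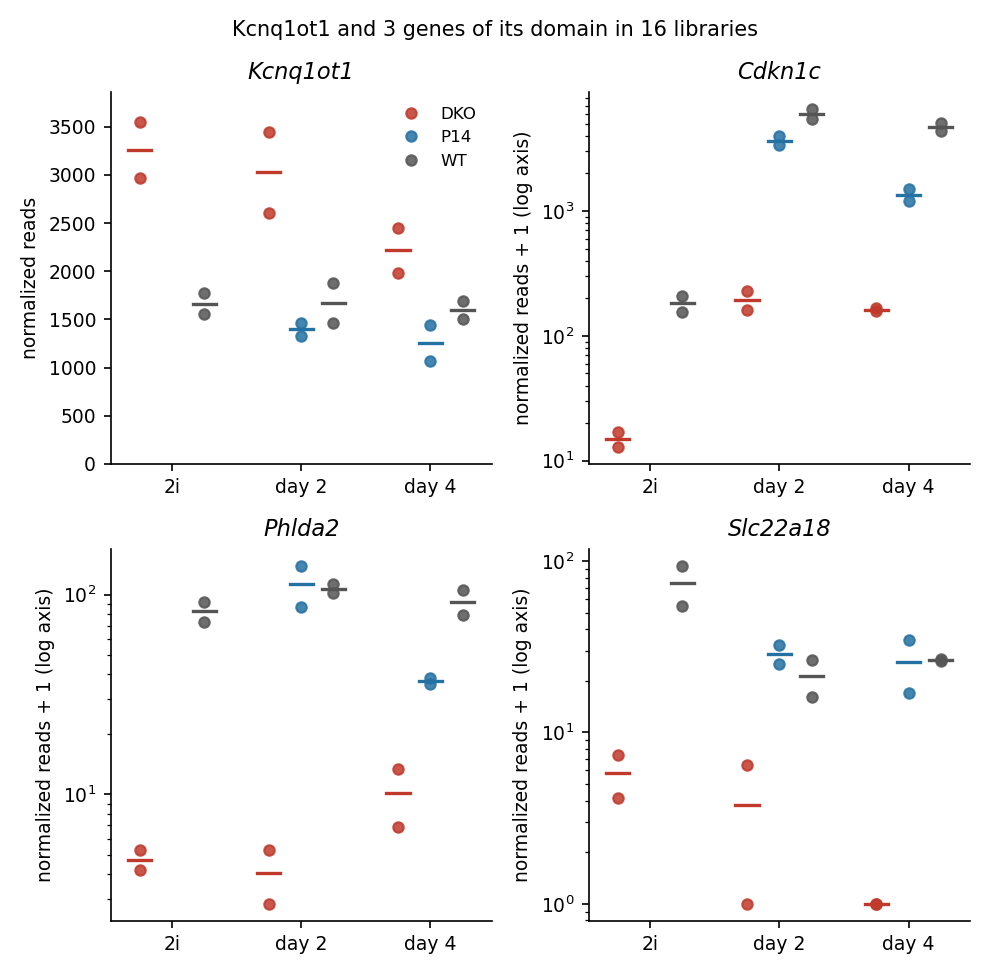
Normalized reads of Kcnq1ot1 (linear axis) and of Cdkn1c, Phlda2 and Slc22a18 (normalized reads + 1, log axes) by stage; points are libraries, short lines are group means, and P14 cells have no 2i group. The 6 DKO libraries lie above all WT libraries for Kcnq1ot1 and, stage by stage, below them for the other 3 genes.

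Levels of markers of other cell types moved with some of these differences. The summed level of 6 primitive endoderm markers (all 6 measured) was 1466 to 1528 in DKO cells, 82.8 to 116 in P14 cells and 1263 to 1552 in WT cells on day 2. On day 4 it was 3241 to 3340 in DKO cells, 223 in both P14 libraries and 1147 to 1258 in WT cells. It rose between 2i and day 2 in WT cells, where all 6 markers passed the test, beside 23.4% of all genes. In P14 cells 5 of the 6 were lower than in WT cells on each day, beside 8.38% and 16.2% of all genes. Sox7 was at 0 in both WT libraries in 2i and Foxa2 in both P14 libraries on day 2. The 8 markers of embryonic stem cells and epiblast summed to 26245 to 27235 in DKO cells, 16802 to 19029 in P14 cells and 11412 to 11694 in WT cells on day 2. On that day 5 were higher in DKO cells, 4 were higher in P14 cells and none was lower in either, beside 12.6% and 8.38% of all genes. They summed to 12736 to 13040 in DKO cells, 8775 to 9236 in P14 cells and 4025 to 4416 in WT cells on day 4. Of the 8, 7 were higher in DKO cells and 6 in P14 cells than in WT cells on that day, beside 13.8% and 16.2% of all genes. Of 6 fibroblast markers 4 were measured, and they summed to 57.3 to 74.7 in DKO cells, 32.2 to 33.8 in P14 cells and 135 to 140 in WT cells on day 4. The part of these markers in the Cdkn1c differences was not tested.

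Gm44732, the antisense model over Cdkn1c, moved with Cdkn1c in every comparison. Its recovered reads were 0.526 to 0.933 of those of Cdkn1c in each library, and 0.526 to 0.68 in the 14 libraries with at least 100 reads of Cdkn1c. The correlation of the 2 genes over the 16 libraries was 0.998 (Pearson r of log2 values), a description over libraries of 8 groups. Cdkn1c exons hold 98.4% of the exonic bases of Gm44732. The mean in DKO cells was 11.3-fold lower than in WT cells in 2i, 32.8-fold lower on day 2 and 31.3-fold lower on day 4. In P14 cells it was lower than in WT cells on day 4 (log2 -1.81 ± 0.30, adjusted p = 0.000547), and the difference on day 2 missed the threshold (-0.67 ± 0.30, adjusted p = 0.201). It rose by day 2 of induction in WT cells (4.94 ± 0.30, adjusted p = 1.12e-08) and in DKO cells (3.35 ± 0.30, adjusted p = 8.76e-07). In P14 cells it fell between day 2 and day 4 by 1.44 ± 0.30 (adjusted p = 0.00299). The strand setting of the counting is not given in the sources used here, so reads of Cdkn1c and of an antisense transcript cannot be told apart. The same holds for the shorter overlaps of Kcnq1 with Kcnq1ot1, of Tssc4 with Trpm5 (220 bases) and of Cd81 with R74862 (104 bases).

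**Figure D3:**
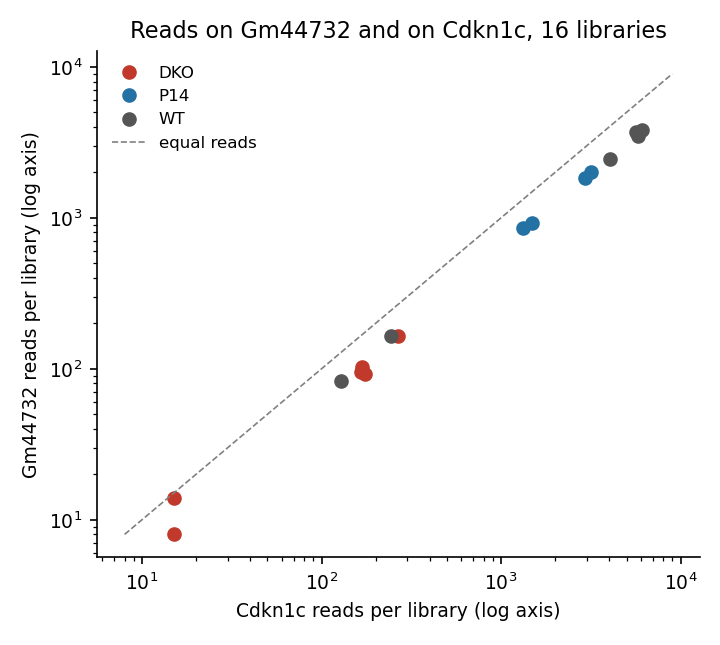
Recovered reads of Gm44732 against recovered reads of Cdkn1c in each of the 16 libraries, on log axes, with a dashed line of equal reads. All points lie below the line, and the DKO 2i libraries, with 15 reads of Cdkn1c each, lie lowest.

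Phlda2, a small pleckstrin homology domain protein that limits placental growth, was scarce in every DKO library. It had 4.24 and 3.17 normalized reads in DKO cells in 2i, against 91.2 and 72 in WT cells, and 1.83 and 4.27 in DKO cells on day 2, against 111.5 and 100.8 in WT cells. On day 4 it had 5.90 and 12.4 in DKO cells, against 77.7 and 105 in WT cells. No DKO library reached the lowest WT library. With 2 to 13 reads per DKO library, the fold is uncertain. Phlda2 was 22.0-fold lower in 2i (95% counting interval 11.2 to 51.0), 34.8-fold lower on day 2 (16.9 to 86.6) and 9.96-fold lower on day 4 (6.38 to 16.5). These intervals cover counting error in the DKO reads only, and with a floor of 3 reads per library the day 2 fold was 30.3. P14 cells had 139 and 86.2 normalized reads on day 2, on both sides of the WT libraries, and 34.7 and 37.2 on day 4, below both WT libraries.

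The P14 to WT difference of Phlda2 was 0.05 ± 0.44 (log2 ± SE) on day 2 (adjusted p = 0.973) and -1.30 ± 0.44 on day 4, which missed the threshold (adjusted p = 0.0565). The day 4 difference passed with limma-voom on recovered reads (-1.36, adjusted p = 0.00813), with a pseudocount of 4 (adjusted p = 0.0239), with only the compared groups (adjusted p = 0.0182) and with equal totals (adjusted p = 0.0499). Within P14 cells, 4 of the 10 genes passed in the main fit from day 2 to day 4, beside 22.5% of all genes. Cdkn1c and the overlapping Gm44732 were both counted. Among the 4, Phlda2 fell by 1.58 ± 0.44 (adjusted p = 0.017). The call was lost without P14 day 2 replicate 1 (adjusted p = 0.149), P14 day 4 replicate 1 (0.0844) or P14 day 4 replicate 2 (0.0674). Within DKO cells it was higher on day 4 than on day 2 (1.32 ± 0.44, adjusted p = 0.0464), at 2 to 13 reads per library. That difference did not pass without DKO day 2 replicate 1 or DKO day 4 replicate 2 (adjusted p = 0.294 each), nor with limma-voom on reads (adjusted p = 0.289). In DKO cells 2 of the 10 genes passed from day 2 to day 4, beside 20.1% of all genes.

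Slc22a18, a membrane transporter, had 0 to 6 reads in each DKO library. It had 6.36 and 3.17 normalized reads in DKO cells in 2i, against 54.0 and 93.2 in WT cells, and 5.50 and 0 in DKO cells on day 2, against 15.1 and 25.4 in WT cells. On day 4 no read was found in either DKO library, against 25.9 and 25.3 normalized reads in WT cells. The groups did not overlap at any stage. The mean was 15.4-fold lower in DKO cells in 2i (95% counting interval 8.40 to 32.2) and 7.38-fold lower on day 2 (3.39 to 20.1). Both intervals leave out counting error in WT cells, which had 14 and 27 reads on day 2. On day 4 the mean was at least 8.80-fold lower, with each DKO library set to 3 reads, a floor that gave 5.04-fold on day 2. P14 cells had 31.5 and 24.1 on day 2 and 33.8 and 16.1 on day 4, overlapping WT cells on both days, and neither difference passed the test (adjusted p = 0.767 and 0.945). In WT cells the level on day 2 was 3.48-fold lower than in 2i, which missed the threshold (-1.80 ± 0.74, adjusted p = 0.0962) and passed with limma-voom on reads (adjusted p = 0.0181).

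Ascl2, a basic helix-loop-helix factor needed in the trophoblast lineage, is the gene of the cluster farthest from Kcnq1ot1 on the other side. In 2i it had 3.18 and 10.3 normalized reads in DKO cells, against 19.2 and 10.2 in WT cells, and the groups overlapped. On day 2 it had 22.9 and 10.2 in DKO cells and 29.0 and 39.1 in P14 cells, against 96.3 and 62.2 in WT cells. The day 4 values were 9.84 and 21 in DKO cells and 26.5 and 44.3 in P14 cells, against 88.5 and 80.3 in WT cells. On both days the DKO libraries were lowest, the P14 libraries next and the WT libraries highest, without overlap, and DKO means were 4.78- and 5.47-fold below WT. The P14 differences were -1.18 ± 0.57 and -1.27 ± 0.57 on the log2 scale and did not pass (adjusted p = 0.232 and 0.156), although that of day 4 passed with limma-voom on reads (adjusted p = 0.0275). In WT cells Ascl2 rose by 2.38 ± 0.57, or 5.22-fold, by day 2 over 2i (adjusted p = 0.00597). Without WT 2i replicate 2 or WT day 2 replicate 1 the adjusted p was 0.0657.

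Of 8 other trophoblast markers, 5 were measured, and Elf5, Tpbpa and Plac1 were not measured here. The 5 summed to 676 to 749 normalized reads in DKO cells, 333 to 391 in P14 cells and 362 to 383 in WT cells on day 4. On day 2 they summed to 126 to 181 in DKO cells, 111 to 114 in P14 cells and 123 to 144 in WT cells. Of the 5 on day 4, 1 was higher and 1 lower in DKO cells than in WT cells, beside 13.8% of all genes, with a median log2 difference of 0.088. Cdx2, a transcription factor of the trophoblast lineage, averaged 485 normalized reads in DKO cells, against 141 in WT cells (adjusted p = 0.000113 by limma). Krt7, a keratin, averaged 21.7 in DKO cells, against 81.6 in WT cells (adjusted p = 0.0396), a call lost with a pseudocount of 0.1 and without DKO day 4 replicate 1 or either WT day 4 replicate. In P14 cells 3 of the 5 were lower and 1 higher on day 4, beside 16.2% of all genes. The higher sum in DKO cells on day 4 was thus mainly that of Cdx2, and the part of these markers in the Ascl2 and Phlda2 differences was not tested.

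Kcnq1, which encodes a voltage-gated potassium channel and spans the cluster's centre, was read at 2 to 34 reads per library. In 2i it had 13.8 and 7.92 normalized reads in DKO cells, against 6 and 7.63 in WT cells. On day 2 it had 7.34 and 14.5 in DKO cells and 15.1 and 23.0 in P14 cells, against 18.4 and 16 in WT cells. Day 4 libraries had 1.97 and 1.91 in DKO cells and 21.9 and 5.03 in P14 cells, against 19.4 and 30.7 in WT cells. DKO cells thus lay just above WT in 2i and below it on both days. The day 4 level was 12.9-fold lower at 2 reads per DKO library, or 8.62-fold with a floor of 3 reads. The 95% counting interval of the 12.9-fold difference, from the DKO reads alone, was 5.05 to 47.5. Neither P14 difference passed the test (adjusted p = 0.946 and 0.291). The fall within DKO cells from day 2 to day 4 passed (-1.95 ± 0.64, adjusted p = 0.0426), but not with any one of the 4 libraries left out (adjusted p = 0.0591 to 0.261) and not with limma-voom on reads (adjusted p = 0.139).

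Cd81, a tetraspanin of the cell surface, was abundant throughout and differed between stages. It had 1872 and 1894 normalized reads in DKO cells in 2i, against 1527 and 1391 in WT cells. On day 2 it had 1093 and 1171 in DKO cells and 1006 and 1109 in P14 cells, against 1140 and 1068 in WT cells, with all groups overlapping. Values on day 4 were 1282 and 1202 in DKO cells and 1447 and 1506 in P14 cells, against 2038 and 2061 in WT cells, with DKO libraries lowest and no overlap. Between DKO and WT cells the order was thus opposite in 2i, where DKO was 1.29-fold higher, and on day 4, where it was 1.65-fold lower. The P14 level was lower than WT on day 4 (log2 -0.47 ± 0.094, adjusted p = 0.00231) and did not pass on day 2 (-0.06 ± 0.094, adjusted p = 0.75).

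Between stages, Cd81 fell by day 2 over 2i in DKO cells (-0.73 ± 0.094, adjusted p = 3.31e-05) and in WT cells (-0.40 ± 0.094, adjusted p = 0.00556). The call in WT cells was lost without WT 2i replicate 1 (adjusted p = 0.0603) or WT day 2 replicate 2 (0.0569), and with libraries scaled to equal totals (0.0562). From day 2 to day 4 it rose in P14 cells (0.48 ± 0.094, adjusted p = 0.00171) and in WT cells (0.89 ± 0.094, adjusted p = 3.35e-06). In WT cells it was the only gene of the 10 to pass between these days, beside 33.0% of all genes, and in DKO cells the difference was 0.13 ± 0.094 (adjusted p = 0.364).

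Tssc4, next to Cd81, encodes a factor of spliceosome assembly, and Nap1l4, at the far edge beyond Phlda2, a histone chaperone. Tssc4 ranged over 418 to 565 normalized reads in the 6 DKO libraries, 527 to 638 in the 4 P14 libraries and 433 to 591 in the 6 WT libraries, with medians of 481, 581 and 533. Nap1l4 ranged over 1667 to 2164 in DKO, 1678 to 1788 in P14 and 1662 to 2064 in WT libraries. Pooled over stages, the libraries of the 3 labels thus covered overlapping ranges for both genes. Stage by stage, DKO and WT libraries overlapped in 2i and not on day 2 or day 4. Tssc4 was 1.12-fold lower in DKO cells on both days, and Nap1l4 was 1.12-fold higher on day 2 and 1.14-fold lower on day 4. P14 and WT libraries overlapped only for Tssc4 on day 2. Tssc4, Nap1l4, Kcnq1ot1 and Slc22a18 passed none of the 8 tests. On day 4, DKO cells were 29.4-fold below WT at Cdkn1c, whose start site is 164.5 kb from that of Kcnq1ot1. They were 1.14-fold below at Nap1l4, whose start site is at 252.6 kb. On the other side they were 1.12-fold below at Tssc4 (-227.3 kb) and 5.47-fold below at Ascl2 (-327.3 kb). The folds were thus not ordered by distance.

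**Figure D4:**
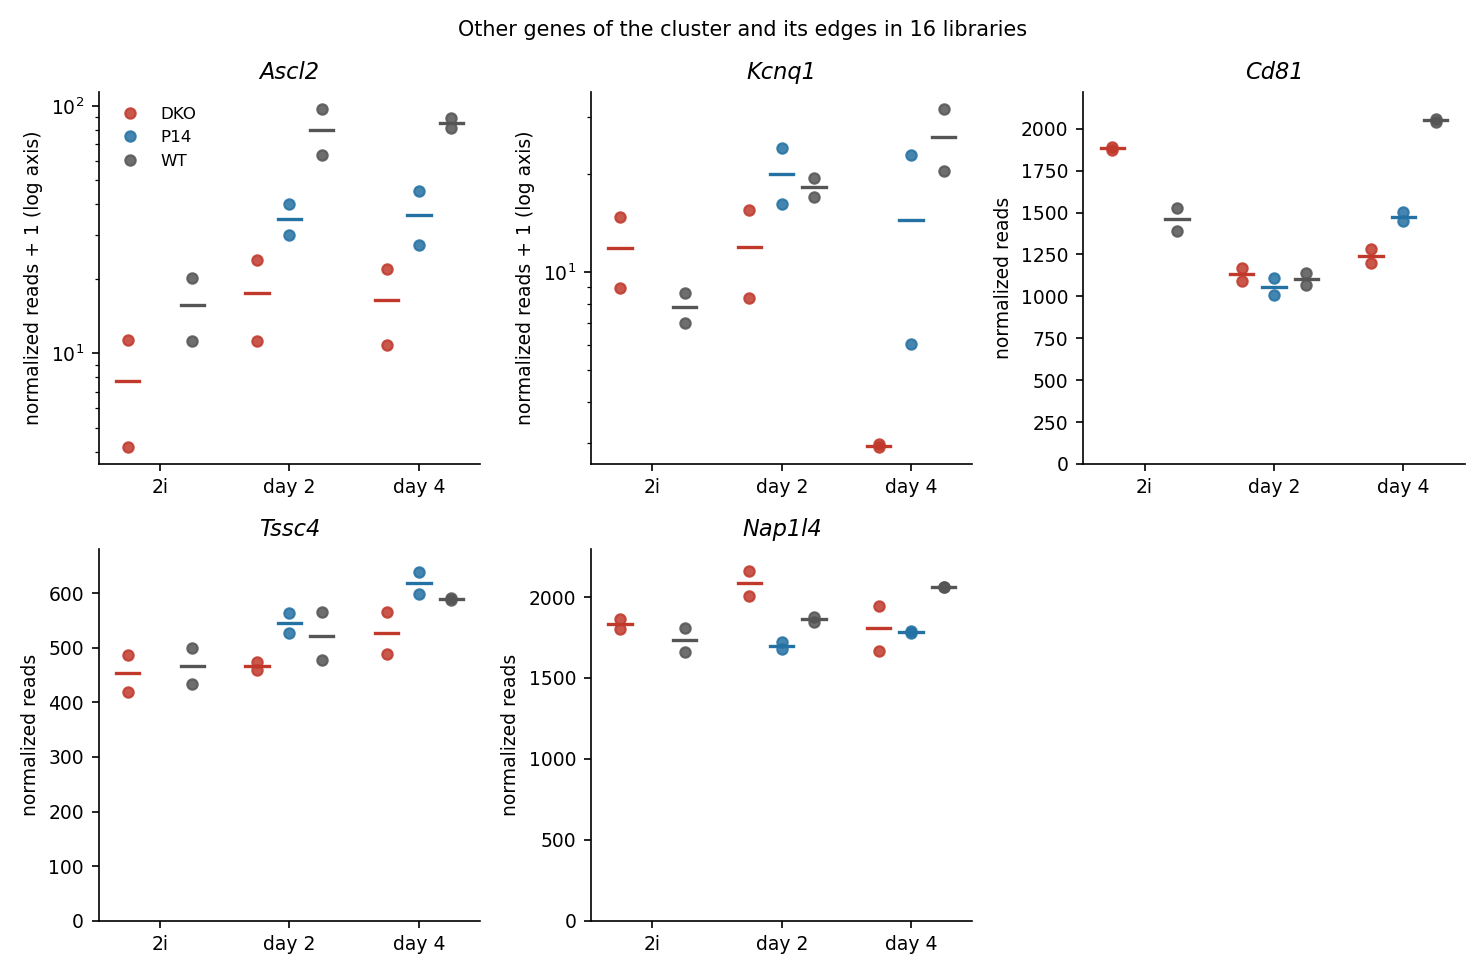
Normalized reads of Ascl2 and Kcnq1 (normalized reads + 1, log axes) and of Cd81, Tssc4 and Nap1l4 (linear axes from 0) by stage, with points for libraries and short lines for group means. DKO libraries lie lowest for Ascl2 on days 2 and 4, and Cd81 on day 4 ranges from 1202 in DKO to 2061 in WT libraries.

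Levels between genes were compared per kb of annotated exon. On day 2, Cdkn1c stood at 95.2 normalized reads per kb in DKO cells, 1800 in P14 cells and 2955 in WT cells. Kcnq1ot1 stood at 32.5, 15.0 and 18.0 normalized reads per kb in the same 3 groups. Nap1l4, at 673 per kb in DKO cells, 549 in P14 cells and 602 in WT cells, was above Cdkn1c in DKO cells and below it in P14 and WT cells. Kcnq1 stood at 0.473 per kb in DKO cells and 6.12 in WT cells on day 4.

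The genes whose pattern was most like that of Cdkn1c were ranked by Pearson r of log2 values over the 16 libraries, among 14710 genes with a mean of at least 10 in some group and leaving out the cluster. The 4 highest were Mybpc2 (r = 0.952), Rhpn2 (0.943), Otud4 (0.941) and Spata13 (0.940). Rhpn2, for one, had a mean of 125 normalized reads in DKO cells on day 2, against 314 in WT cells. The 16 points come from 8 groups and share their libraries' scaling.

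Cdkn1c is one of several CDK inhibitors, and 7 others were measured. In DKO cells 1 was higher and none lower than WT in 2i, 1 was higher and 1 lower on day 2, and 1 was lower on day 4, where 8.67%, 12.6% and 13.8% of all genes passed. In P14 cells 1 of the 7 was higher on each day and none was lower, beside 8.38% and 16.2% of all genes. Their median log2 difference between DKO and WT was 0.39 in 2i, -0.02 on day 2 and -0.14 on day 4, beside medians of all genes within 0.04 of 0. Cdkn2a, the one that was higher in DKO cells in 2i (0.74 ± 0.12, adjusted p = 0.000741), inhibits CDK4 and CDK6. Of 11 cyclins and CDKs that p57 can bind, 3 were higher in P14 cells on day 2 and none lower, beside 8.38% of all genes. Ccnd2 was among the 3 (1.27 ± 0.11, adjusted p = 2.81e-06). In DKO cells on day 2, 3 of the 11 were higher and 1 lower, beside 12.6% of all genes, and Ccnd2 was again higher (2.91 ± 0.11, adjusted p = 4.91e-10). On day 4, 1 of the 11 was higher and 1 lower in P14 cells, and 2 were higher and 2 lower in DKO cells, beside 16.2% and 13.8% of all genes. Ccnd2 averaged 1064 normalized reads in DKO cells and 869 in P14 cells on that day, against 1096 in WT cells. The P14 difference of Ccnd2 was lower on day 4 than on day 2, with an interaction of -1.60 ± 0.15 (adjusted p = 2.26e-05). On day 4 itself it was -0.34 ± 0.11 (adjusted p = 0.047), a call lost under 7 of 13 alternatives.

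Proteins that write, keep or remove imprints were taken as a list of 17 genes, of which 15 were measured. In DKO cells 4 were lower and none higher than WT in 2i, 3 were higher and 3 lower on day 2, and 5 were higher and 2 lower on day 4, beside 8.67%, 12.6% and 13.8% of all genes at the 3 stages. Dnmt3l, the cofactor of the de novo DNA methyltransferases, had 72.1 and 50.7 normalized reads in DKO cells in 2i, against 550 and 529 in WT cells (log2 -3.14 ± 0.16, adjusted p = 2.58e-08). Dnmt3b, a de novo methyltransferase, was lower in DKO cells in 2i (-1.09 ± 0.11, adjusted p = 1.94e-05) and on day 2 (-1.61 ± 0.11, adjusted p = 1.45e-07). Dnmt3l averaged 708 in DKO cells against 2123 in WT cells on day 2, and 599 against 450 on day 4. On day 4, 2 of the list were lower in DKO cells. The 5 that were higher included Tet2 (1.89), Tet1 (1.47), Dnmt3a (1.36) and Zfp57 (1.15), and Zfp57 was also higher on day 2 (1.02). In P14 cells 4 were lower and 1 higher than WT on day 2, and 3 lower and 2 higher on day 4, beside 8.38% and 16.2% of all genes, with Dnmt3b lower on both days (-1.61 and -1.33). Of 15 chromatin factors tied to Kcnq1ot1 silencing, 14 were measured, and at most 3 passed in 1 direction in any comparison of DKO or P14 with WT cells, beside the same shares of all genes. Jarid2, a Polycomb cofactor, was higher on day 4 in DKO cells (0.94 ± 0.094, adjusted p = 5.54e-06) and in P14 cells (0.71 ± 0.094, adjusted p = 6.09e-05).

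Imprinted genes outside the cluster also differed from WT. Of 14 genes listed as maternally expressed, 1 was lower in DKO cells in 2i, 6 were lower and 3 higher on day 2, and 5 were lower and 1 higher on day 4, where 8.67%, 12.6% and 13.8% of all genes passed. Grb10, an adaptor that restrains growth factor signalling, was the gene lower in 2i (log2 -3.34 ± 0.092, adjusted p = 1.06e-11), and it was lower on day 2 (-3.01 ± 0.092, adjusted p = 4.94e-11) and day 4 (-1.36 ± 0.092, adjusted p = 9.38e-08). Of the 27 measured among 29 genes listed as paternally expressed, 7 were higher and 1 lower in DKO cells in 2i, beside 8.67% of all genes. On day 2, 6 of the 27 were higher and 4 lower, beside 12.6% of all genes. On day 4, 2 were higher and 8 lower, beside 13.8% of all genes. Plagl1, a zinc finger growth regulator, was higher in DKO cells at all 3 stages (2.54, 3.59 and 4.05, each ± 0.21). In P14 cells 6 of the 14 maternally expressed genes were lower and 2 higher on day 2, led by the noncoding RNAs Rian (-4.26 ± 0.15, adjusted p = 6.24e-11), Meg3 (-5.17 ± 0.25, adjusted p = 6.27e-09) and Mirg (-4.67 ± 0.27, adjusted p = 3.36e-08) of 1 locus, where 8.38% of all genes passed. On day 4, 14 of the 27 paternally expressed genes were lower in P14 cells and 1 higher, with a median of -1.46 beside 0 for all genes, of which 16.2% passed. Peg3, a zinc finger gene, was among them (-2.48 ± 0.10, adjusted p = 3.18e-10). Copg2 is in the second list although it has also been reported as maternally expressed, and these lists share Igf2 and H19 with the neighbours on chromosome 7.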

How the data were processed

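Total RNA of 16 libraries was sequenced after a stranded Collibri library preparation, per the labels' protocols. Trim Galore, HISAT2 and featureCounts are named in the submitters' processing notes, with mm10/GRCm38 as the build. Not given in the sources used here are the strand setting, the scaling, the annotation, tool versions and how reads over several genes were treated. The authors deposited log2 values. When 2 was raised to them and 4 subtracted, each library held whole multiples of its own step (100% of values under 1000 reads, within 0.1 of a read), so they were read as log2 of a normalized count plus 4, and whole reads were recovered from the steps. Of the recovered reads, 57.5 to 63.9% of values from 1 to 50 were even, so mates may have been counted singly and counting intervals, which cover counting error only, may be too narrow. Entries without a symbol (667, holding 7.61 to 11.1% of reads) stayed out of the tests.

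Limma 3.58.1 (R 4.3.3) was fitted to log2(value + 1) in all 16 libraries with 8 group means and a trended variance, for the 21450 genes that reached a value of 1 in 2 or more libraries. P-values were two-sided and Benjamini-Hochberg adjusted over all of them, and a gene passed, rose or fell at an adjusted p under 0.05. Fold changes on this scale can understate those of genes with few reads, and can overstate them where a library had no read. For Slc22a18 in DKO against WT they were -3.02 on day 2 and -4.73 on day 4 (log2). The ratios of means with the floor were -2.33 and -3.14. Differences between DKO and WT cells of the 10 genes are ratios of group means. Ratios with a 95% interval carry no floor, and their exact Poisson intervals cover the DKO reads only, with the WT mean taken as fixed. For Slc22a18 on day 4 a floor of 3 reads per library was used. The same floor gave 30.3-fold for Phlda2 and 5.04-fold for Slc22a18 on day 2, and 8.62-fold for Kcnq1 on day 4. The model was tested on simulated data. The unit is log2, so the count models planned for deposited counts were not used, and limma-voom on the recovered reads served as the alternative. The 10 genes and the 11 gene lists were chosen with earlier results of these data known. One further gene ranked by its likeness to Cdkn1c is not reported here. List genes were named among the 4 with the smallest adjusted p. Alternatives covered scaling, pseudocount, filter, groups in the fit, limma-voom, a replicate block and leaving out each library.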

Additional observations from a re-analysis of the deposited data

Results flagged for a closer look

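In the main fit, the difference of P14 from WT cells in Cdkn1c was not the same on both days of induction. As given above, that call was lost without certain single libraries, where the interaction was -0.99 to -0.95. The call of the day 2 difference was lost without any one of its libraries. The interaction was -1.101 on the log2 scale (SE 0.273, adjusted p = 0.0274 by limma over all genes), with Cdkn1c 1.64-fold lower in P14 than in WT cells on day 2 and 3.52-fold lower on day 4. The summed primitive endoderm markers were 82.8 to 116 in P14 cells, against 1263 to 1552 in WT cells, on day 2, and 223 in both P14 libraries, against 1147 to 1258 in WT cells, on day 4. Of the 8 markers of embryonic stem cells and epiblast, 6 were higher and 1 lower in the same interaction, where 5.43% of all genes passed. Nanog (2.90) and Esrrb (2.64 on the log2 scale) were among the higher markers. The 8 markers summed to 16802 to 19029 in P14 cells, against 11412 to 11694 in WT cells, on day 2, and to 8775 to 9236 in P14 cells, against 4025 to 4416 in WT cells, on day 4. The part of both marker lists in the Cdkn1c interaction was not tested.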

How the results depend on the processing

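For the 10 genes, 80 differences were tested and 19 passed, with Cdkn1c and the overlapping Gm44732 counted separately. Over 1079 recomputed values, 979 kept their direction and side of the threshold, 32 no longer passed, 18 newly passed and 50 changed sign. The 50 sign changes were in 25 differences, none of them among the 19. With equal totals or limma-voom, Kcnq1ot1 stood at 0.055 and 0.063 on the log2 scale in WT day 2 against 2i, at 0.052 and 0.047 in WT day 4 against day 2 and at 0.010 and 0.009 in DKO day 2 against 2i, where Kcnq1 stood at 0.097 and 0.198. With median-centred libraries Tssc4 stood at 0.069 in the interaction and -0.015 in DKO day 2 against 2i, Ascl2 at -0.056 in WT and -0.082 in P14 day 4 against day 2, and Nap1l4 at -0.030 and -0.038 in the same comparisons. Leaving out 1 library gave, on the log2 scale, in DKO day 4 against DKO day 2 -0.632 to 0.459 for Ascl2, -0.495 to 0.008 for Cdkn1c and -0.549 to 0.182 for Gm44732, in the P14 interaction -0.456 to 0.263 for Ascl2, -0.324 to 0.102 for Kcnq1ot1 and -0.123 to 0.121 for Tssc4, in P14 day 4 against P14 day 2 -0.335 to 0.385 for Ascl2, -1.706 to 0.221 for Kcnq1, -0.379 to 0.047 for Kcnq1ot1 and -0.742 to 0.284 for Slc22a18, and in WT day 4 against WT day 2 -0.19 to 0.433 for Ascl2 and -0.235 to 0.126 for Kcnq1ot1. It gave in P14 day 2 against WT day 2 -0.134 to 0.007 for Cd81, -0.171 to 0.401 for Kcnq1, -0.295 to 0.386 for Phlda2 and -0.053 to 0.191 for Tssc4, in DKO day 2 against DKO 2i -0.462 to 0.433 for Kcnq1, -0.317 to 0.085 for Kcnq1ot1, -0.722 to 0.172 for Phlda2, -2.47 to 0.231 for Slc22a18 and -0.063 to 0.158 for Tssc4, in WT day 2 against WT 2i -0.182 to 0.179 for Kcnq1ot1, and in P14 day 4 against WT day 4 -0.636 to 0.389 for Slc22a18. The number of genes of the cluster that passed moved as follows, and the cause was not tested. From day 2 to day 4 in DKO cells it was 2, and 0 with a pseudocount of 4, with only the compared groups, with limma-voom and with a replicate block. For the P14 interaction it was 1, and 2 with only the compared groups and with limma-voom. For P14 against WT on day 2 it was 1, and 2 with limma-voom; on day 4 it was 3, and 5 with only the compared groups and with limma-voom. For WT day 4 against day 2 it was 1, and 2 with median-centred libraries and with only the compared groups. Leaving out 1 library gave 0 to 2 from day 2 to day 4 in DKO cells, 0 to 1 for the interaction and 0 to 0 for P14 on day 2. Same-numbered libraries did not deviate together (correlations -0.093 to 0.163 over 28 pairs of groups, 1 above 0.1), so the replicate block rests on a shared number only; it changed no other count of the cluster's genes. Among all genes, P14 against WT on day 2 gave 1797 calls, 796 with only the compared groups and 858 to 2655 without 1 library; the interaction gave 1165, 776, and 762 with limma-voom, and 695 to 1944 without 1 library; and P14 day 4 against day 2 gave 4817, 2749 with only the compared groups, and 3112 to 4962. Without 1 library, P14 against WT on day 4 (3471) gave 2140 to 2310, DKO day 2 against 2i (4610) gave 2904 to 3348 and DKO day 4 against day 2 (4304) gave 2392 to 3437. Scaling to equal totals shifted the median of all genes by 0.105 in WT day 4 against day 2, 0.122 in DKO day 2 against 2i and 0.112 in DKO against WT on day 2, with limma-voom within 0.01 of these, and median centring shifted it by -0.177 in WT and -0.107 in P14 day 4 against day 2. With DKO and WT on day 2 scaled to equal totals, Cd81 stood at 0.15 and Nap1l4 at 0.27 on the log2 scale. These were more than 1 SE of the model from the main values of 0.036 and 0.16. Depth limits Phlda2, Slc22a18, Kcnq1 and Ascl2, which had 0 to 25 reads in DKO libraries.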

Other observations

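Among 21 neighbours of the cluster on distal chromosome 7, 15 were measured. In DKO cells 1 was higher and 4 lower than WT in 2i, 5 were lower on day 2 and 3 lower on day 4, and none was higher on either day, beside 8.67%, 12.6% and 13.8% of all genes passing at the 3 stages. In P14 cells 2 were lower on day 2, and 2 were lower and 1 higher on day 4, beside 8.38% and 16.2% of all genes. Igf2, a fetal growth factor gene of the adjoining imprinted domain, had 2664 and 2515 normalized reads in DKO cells and 2582 and 2924 in P14 cells on day 4, against 7862 and 8845 in WT cells. On that day it was lower than WT in DKO cells (log2 -1.69, both libraries) and in P14 cells (-1.60, both libraries) by limma. It was lower on day 2 too, in P14 cells (-2.08) and in DKO cells (-0.585). In 2i, Igf2 was the 1 neighbour that was higher in DKO cells (0.697, adjusted p = 0.00634 by limma). Within every label it rose between day 2 and day 4, by 3.08 in DKO cells, 4.66 in P14 cells and 4.18 in WT cells. Mrpl23, a mitochondrial ribosome gene, was lower in DKO cells on day 2 (-1.06).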
